A study of Rattus norvegicus with 36 samples.

Results

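The 6 endoplasmic reticulum chaperone genes Canx, Calr, Hsp90b1, Hspa5, Pdia3 and P4hb were followed in RNA of rat skeletal muscle after resisted contractions. The measurements were all probe sets whose platform gene symbol is one of these 6 genes, which gave 19 of the 8740 probe sets that are not controls, for 6 of 4736 genes that probe sets with 1 symbol name. Of these 19, 5 belong to Canx, 3 each to Calr, Hsp90b1, Hspa5 and P4hb, and 2 to Pdia3. The 36 one-colour arrays fall into 6 groups, with 2 arrays for each number in a title. They are polysomal RNA collected 6 h after exercise (numbers 1 to 4, 8 arrays), polysomal RNA collected 1 h after exercise (numbers 1 and 2, 4 arrays), total RNA at 6 h (numbers 1 to 4, 8 arrays), total RNA at 1 h (numbers 1 and 2, 4 arrays), a control titled "1hr polysome" (numbers 1 and 2, 4 arrays) and a control described as polyribosomal (numbers 1 to 4, 8 arrays). Polysomal RNA is RNA that sediments with polyribosomes, the transcripts that carry several ribosomes. The labels call the controls' fraction differently: the titles of the smaller group name polysomes while its description does not, and the larger group's description gives collection at 1 h while its titles give no time. No control is titled as total RNA, but the labels do not settle whether the smaller control is polysomal. The muscle is given only as "ta", and strain, age, sex and the number of animals are not given in the sources used here, so the p-values rest on the variation among these replicates alone, and part or all of it may be technical.

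Proteins that enter the secretory route are threaded into the endoplasmic reticulum and fold there with the help of chaperones. Hspa5 (BiP) is the ATP-dependent Hsp70 of the lumen and Hsp90b1 (GRP94) its Hsp90. Canx (calnexin, in the membrane) and Calr (calreticulin, in the lumen) hold glycoproteins through their sugars. Pdia3 (ERp57) and P4hb (protein disulfide isomerase) form and reshuffle disulfide bonds, Pdia3 on the clients of Canx and Calr, and P4hb also as the subunit of prolyl 4-hydroxylase that collagen needs. When unfolded proteins accumulate, the unfolded protein response raises transcription of such genes through the endoplasmic reticulum stress element of their promoters, in which the letters CCAAT and CCACG stand 9 bases apart. In muscle fibres the same membrane system is specialised as sarcoplasmic reticulum, which stores calcium, and Calr and Hspa5 bind calcium.

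The stress element is shown because it is the sequence through which these genes are known to be raised together. The RefSeq promoter table (GRCr8, 250 bases before to 50 after each start) held 5 of the 6 genes, all but Pdia3. The whole element, CCAAT and CCACG on 1 strand with any 9 bases between them, was searched on both strands and was found in 4 of these 5 promoters and in 22 of all 33469 promoters of the table, 0.0657%. Its parts are common: CCAAT stood in 37.5% and CCACG in 31.6% of all promoters, and each in all 5 members, P4hb included. Hsp90b1 held the element at 2 places. The sites follow, 5′ to 3′ on the strand of the element, with the conserved parts in capitals.
Hspa5, bases 43 to 25 before the start, strand of the gene: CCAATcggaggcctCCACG
Hsp90b1, bases 176 to 158 before the start, strand of the gene: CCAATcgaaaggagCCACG
Hsp90b1, bases 72 to 54 before the start, opposite strand: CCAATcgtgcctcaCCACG
Canx, bases 230 to 212 before the start, strand of the gene: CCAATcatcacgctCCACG
Calr, bases 232 to 214 before the start, opposite strand: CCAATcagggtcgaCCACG

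The whole promoter windows of the gene with the element nearest to its start and of the 2 genes whose polysomal and total signals differed (below) are given on the strand of the gene, with the element in capitals. Hspa5 lies on the plus strand at chr3:38452766-38453065, Hsp90b1 on the minus strand at chr7:23012244-23012543 and Canx on the minus strand at chr10:35157808-35158107.
Hspa5: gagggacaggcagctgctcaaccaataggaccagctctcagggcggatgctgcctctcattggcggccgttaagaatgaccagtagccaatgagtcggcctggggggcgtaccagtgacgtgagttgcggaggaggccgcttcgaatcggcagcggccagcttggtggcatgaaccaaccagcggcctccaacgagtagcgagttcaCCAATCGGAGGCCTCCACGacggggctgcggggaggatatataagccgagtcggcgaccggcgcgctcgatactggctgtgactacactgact
Hsp90b1: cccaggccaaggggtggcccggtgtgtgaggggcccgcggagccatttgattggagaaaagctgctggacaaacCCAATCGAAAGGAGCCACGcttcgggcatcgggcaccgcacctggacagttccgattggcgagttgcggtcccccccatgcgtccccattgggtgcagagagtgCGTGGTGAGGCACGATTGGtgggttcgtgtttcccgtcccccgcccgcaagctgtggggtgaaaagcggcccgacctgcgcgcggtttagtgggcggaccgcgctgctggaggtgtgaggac
Canx: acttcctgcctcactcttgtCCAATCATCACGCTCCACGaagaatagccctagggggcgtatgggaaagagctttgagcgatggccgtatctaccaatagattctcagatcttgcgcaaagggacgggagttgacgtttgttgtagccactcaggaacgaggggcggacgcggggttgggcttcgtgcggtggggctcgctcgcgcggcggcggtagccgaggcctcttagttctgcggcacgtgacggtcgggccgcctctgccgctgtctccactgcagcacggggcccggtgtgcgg
The sites differ in their 9 inner bases and in their distance from the start. No match in P4hb says only that these letters are not in its window. Of the 22 promoters with the element, 2 belong to tested genes that are not members: Ero1b, an oxidase of the endoplasmic reticulum, differed by -0.04 on the log2 scale between 6 h polysomal RNA and the polysomal control, and Hnrnpa3, an RNA-binding protein, by 0.21.

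The signals are linear intensities scaled by the authors, with a 2% trimmed mean of 800.0 on every array. Signals under 129.5, the 40th percentile, were set to that floor, and 18 of the 19 member probe sets were above it on at least 4 arrays and were tested. The Hspa5 probe set S63521_r_at was at the floor on all 36 arrays. Each gene is described first by its brightest tested probe set, and no probe set's level is set against another's. The total RNA of the 6 h set did not form 1 group: its numbers 1 and 2 correlated with 1 h total RNA over all probe sets at 0.963 and 0.959, against 0.823 for number 3 and 0.917 for number 4. Number 3 also had beta-actin 3′/5′ ratios of 9.01 and 11.5, against at most 1.58 on the other 6 arrays of 6 h total RNA and 2.54 to 4.48 in 6 h polysomal RNA, and number 4 correlated with 6 h polysomal RNA at 0.942. Calls against 6 h total RNA are therefore given with and without numbers 3 and 4, for the members and for the gene lists and markers. Genes of fast muscle (Myh4, Tnnt3, Tnni2, Pvalb, Atp2a1) were among the bright ones, with median signals of 21369 to 26602, whereas Ckm, which muscle also expresses strongly, had a median of 26.6, under the floor.

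The comparison of 6 h polysomal RNA with the polysomal control addresses whether the chaperone transcripts on ribosomes differ after exercise. None of the 18 member probe sets was called at an adjusted p under 0.05, against 23 of 6707 probe sets in all, 0.343% (22 higher, 0.328%, and 1 lower, 0.0149%). Of the 18, 2 (Canx rc_AA893328_at and P4hb M21476_s_at) were at the floor on every array of both groups and could not have been called. The members' changes ran from -0.37 to 0.43 on the log2 scale with a median of 0.05, against -0.03 over all probe sets, and 0 of the 18 had an unadjusted p under 0.05.

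Hspa5, the gene most used to read the unfolded protein response, gave signals from 2398 to 6206 with a median of 3237 on the 8 arrays of 6 h polysomal RNA, against 1484 to 6659 with a median of 2048 in the polysomal control. The groups overlapped through 3 control arrays of numbers 1 and 2 (3917, 6659 and 4975), and the other 5 control arrays lay below the lowest array of 6 h polysomal RNA. Number 2 was high in both groups, with a geometric mean of 4776 in 6 h polysomal RNA and 5756 in the control. On numbers 3 and 4 the signals were 2446 to 3896 in 6 h polysomal RNA, against 1501 to 2113 in the control. The log2 difference was 0.73 on these numbers alone and -0.06 on numbers 1 and 2 alone (limma adjusted p = 1 for both). The fitted change was 1.26-fold with a 95% interval of 0.718 to 2.22 (limma adjusted p = 1), so the data do not settle a direction for Hspa5.

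Among the brightest probe sets, that of Hsp90b1 varied least in these groups. This probe set, S69315_at, ran from 1629 to 1943 with a median of 1741 in 6 h polysomal RNA, against 1462 to 2129 with a median of 1794 in the polysomal control. The range of the exercised muscle lay inside that of the control, and the fold change had an interval of 0.782 to 1.22. The gene's other probe sets spread wider. S69316_s_at ran from 1175 to 2561 in 6 h polysomal RNA, against 1163 to 2571 in the control, and AA685903_at from 110.2 to 310.2, against 25.6 to 395.

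Canx, by probe set rc_AI010725_g_at, had 901 to 1394 with a median of 1199.5 in 6 h polysomal RNA, against 1089 to 1971 with a median of 1512 in the polysomal control. Its log2 difference of -0.37 (SE 0.23) is the most negative among the members and was not called. Calr (D78308_at) had 3386 to 4971 with a median of 4164 in 6 h polysomal RNA, against 2591 to 5366 with a median of 4040.1 in the control, a log2 difference of 0.13 (SE 0.23).

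The oxidoreductases were as close. P4hb (X02918_at) had 2472 to 3852 with a median of 2984 in 6 h polysomal RNA, against 2155 to 3466 with a median of 2777 in the polysomal control, a log2 difference of 0.11 (SE 0.19). Pdia3 (X12355_s_at) had a median of 432 in 6 h polysomal RNA, where 1 array of number 2 fell to 50.6 and the other 7 lay between 299 and 634, against 252 to 612 with a median of 428 in the control. The groups of both genes overlapped.

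**Figure D1:**
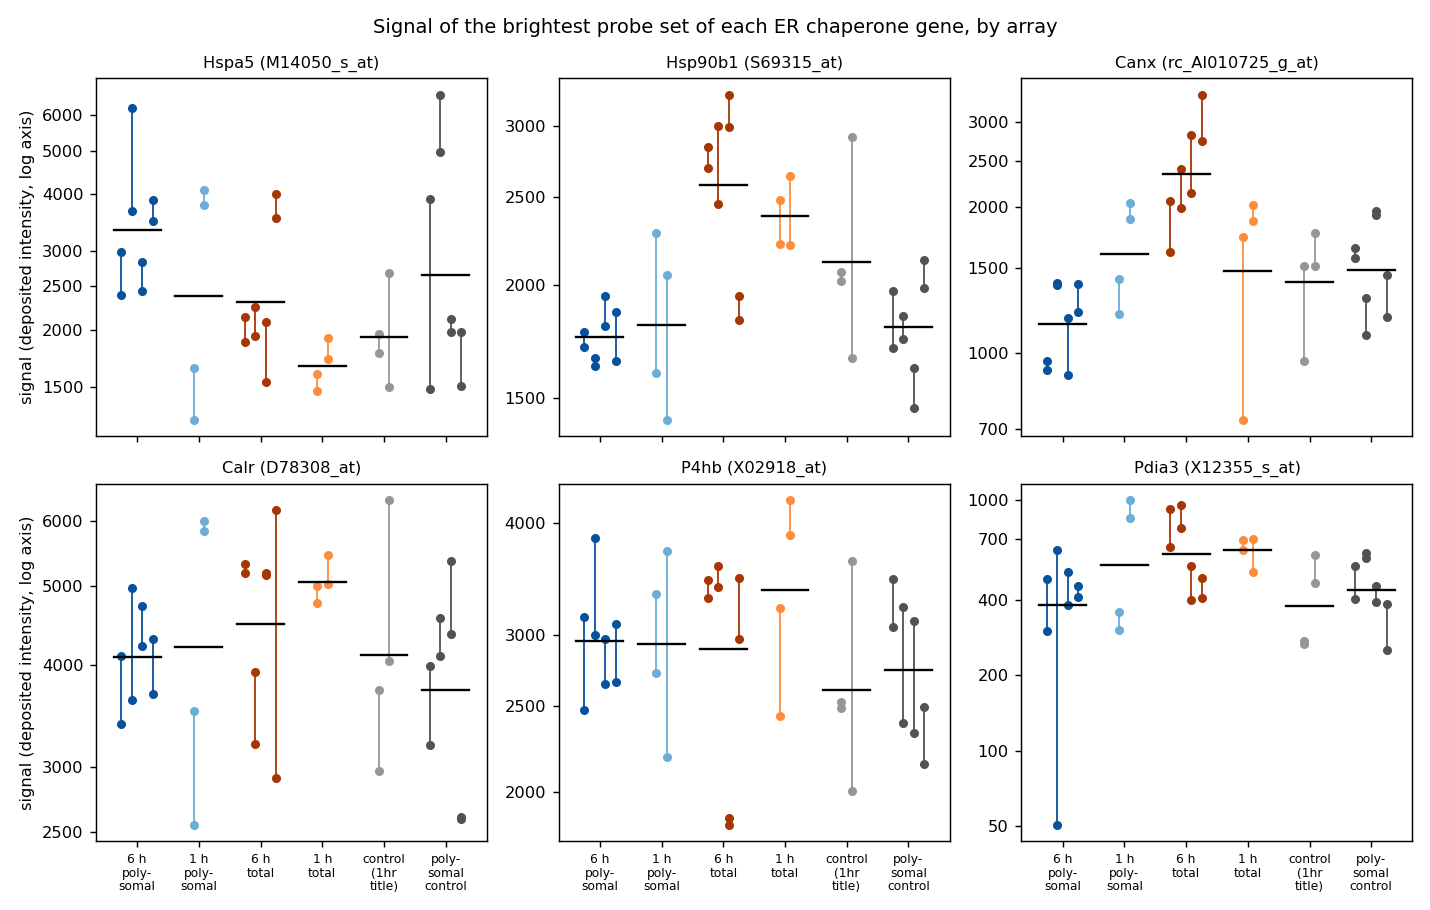
Signal (log axis, arbitrary units) of the brightest tested probe set of each of the 6 genes on all 36 arrays, by group; a line joins the 2 arrays of a number and the black bar is the geometric mean. Canx is lower on all 8 arrays of 6 h polysomal RNA than on the 8 arrays of 6 h total RNA, while the other genes' ranges overlap in each pair of groups at 6 h.

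Between the fractions at 6 h, which asks whether a transcript's share on polysomes differs from its share in the whole RNA, 2 of the 18 member probe sets were called, both lower in polysomal RNA, against 8.77% of all probe sets (588, of which 253 were higher, 3.77%, and 335 lower, 4.99%). Under quantile normalization the split of all calls was 312 higher and 175 lower, and under scaling to the 75th percentile 331 and 157. The median over all probe sets was -0.163 as deposited, -0.048 under quantile normalization and -0.062 under 75th percentile scaling. The members' log2 differences ran from -1.28 to 0.53 with a median of -0.51, against -0.16 over all probe sets, and 14 of the 18 were below 0, as were 67.3% of all probe sets. Among these 14, Canx rc_AA893328_at and P4hb M21476_s_at were at the floor on all 8 arrays of 6 h polysomal RNA. They could only come out level or lower there. The median of the members was -0.43 under quantile normalization and -0.36 under 75th percentile scaling. This comparison and the one before it share the 6 h polysomal arrays.

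Canx gave the largest called difference. Its probe set rc_AI010725_g_at ran from 901 to 1394 in 6 h polysomal RNA, against 1617 to 3418 with a median of 2269 in 6 h total RNA. No array of the polysomal group reached any array of the total group, which was so in the same direction for 78 of the 6707 probe sets, 1.16%. The signal was 0.492-fold in polysomal RNA (95% interval 0.348 to 0.696, limma adjusted p = 0.0172). The adjusted p was 0.0516 when number 3 of 6 h polysomal RNA was left out. The other Canx probe sets lay on the same side without passing: rc_AI235707_g_at at -0.85 (adjusted p = 0.0851), rc_AI010725_at at -0.65 (0.101) and L18889_at at -0.46 (0.325). The dimmest, rc_AA893328_at, was at the floor on all 24 arrays of the polysomal RNAs and both controls and had 319, 426, 333 and 433 on numbers 1 and 2 of 6 h total RNA but 17.4, 222, 50.5 and 22.5 on numbers 3 and 4. With the floor applied, it was 1.82-fold lower in 6 h polysomal RNA (limma adjusted p = 0.0568). Since 3 of the 8 total arrays were also at the floor, this value is not a lower bound.

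Hsp90b1 was the second call. S69315_at had 1629 to 1943 in 6 h polysomal RNA, against 2842, 2695, 2457, 3002, 2991, 3247, 1944 and 1828 in 6 h total RNA. Number 4 of total RNA, the last pair of values, lay at the top of the polysomal range, and the other 3 numbers lay above all polysomal arrays. The signal was 0.679-fold in polysomal RNA (interval 0.545 to 0.847, adjusted p = 0.0333). This call was lost when any 1 of the other 7 numbers was left out (adjusted p 0.0542 to 0.091) and kept without number 4 of total RNA (0.00344). The second probe set of the gene went the other way: S69316_s_at ran from 1175 to 2561 in 6 h polysomal RNA, against 895 to 1532 in 6 h total RNA, a log2 difference of 0.44 (adjusted p = 0.286). The dimmest, AA685903_at, lay on the side of S69315_at at -1.28 (adjusted p = 0.12), so 2 of the 3 probe sets of Hsp90b1 had values below 0 and 1 above, and only S69315_at was called.

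Hspa5 was not called in either direction. M14050_s_at had a median of 3237 in 6 h polysomal RNA, against 2116 in 6 h total RNA, where number 4 stood at 4009.6 and 3544 and the other 3 numbers at 1537 to 2256. The log2 difference was 0.53 (SE 0.38, adjusted p = 0.387), while S63521_i_at had -1.14 (SE 0.43, adjusted p = 0.107). For S63521_i_at, numbers 1 and 2 of total RNA had 393 to 575 and numbers 3 and 4 had 1028 to 1902, against 147 to 541 in 6 h polysomal RNA.

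Calr, P4hb and Pdia3 differed by -0.13, 0.03 and -0.68 (adjusted p 0.739, 0.937 and 0.203) by their brightest probe sets. Pdia3 had a median of 432 in 6 h polysomal RNA, against 597 in 6 h total RNA, where numbers 1 and 2 had 651, 924, 952 and 775 and numbers 3 and 4 had 398, 543, 488 and 404. All polysomal arrays lay below numbers 1 and 2 and overlapped numbers 3 and 4. P4hb M21476_s_at was at the floor on all 8 polysomal arrays. In total RNA it had 572, 531, 539 and 429.5 on numbers 1 and 2 and 16.2 to 40.3 on numbers 3 and 4. With the floor applied, it was 1.99-fold lower in polysomal RNA (limma adjusted p = 0.124). Since 4 of the 8 total arrays were also at the floor, this value is not a lower bound.

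**Figure D2:**
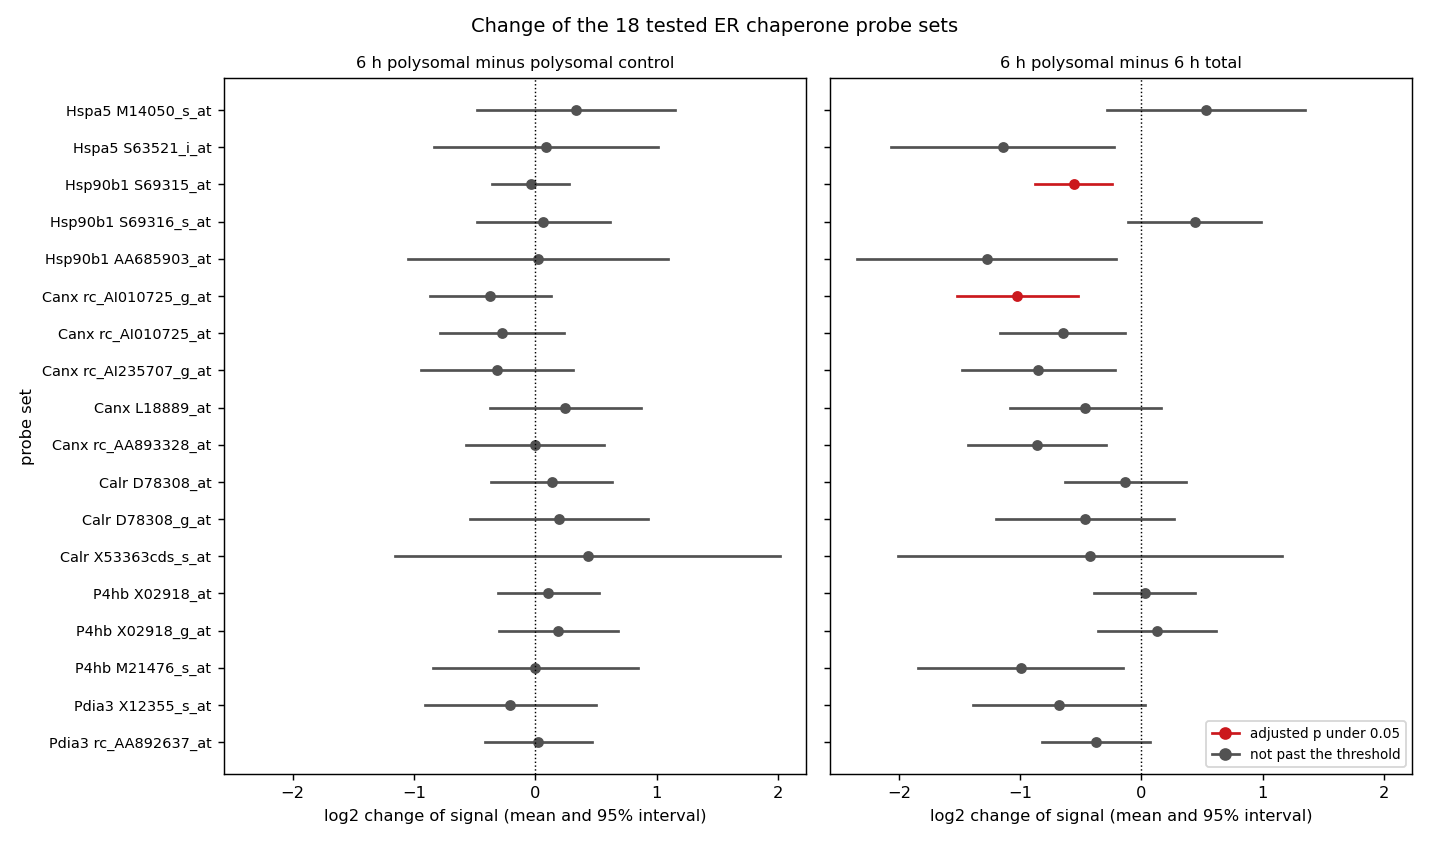
Log2 difference with its 95% interval for the 18 tested probe sets, 6 h polysomal RNA minus the polysomal control (left) and minus 6 h total RNA (right); red marks an adjusted p under 0.05. All 18 intervals on the left include 0, and the 2 red points on the right are Canx rc_AI010725_g_at and Hsp90b1 S69315_at.

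The comparison differed with the number of 6 h total RNA. Set against the mean of 6 h polysomal RNA, number 1 of total RNA gave a polysomal difference below 0 for 15 of the 18 probe sets with a median of -0.70, and number 2 for 14 with a median of -0.91. Number 3 gave 12 below 0 with a median of -0.31, and number 4 gave 11 with a median of -0.11. When numbers 3 and 4 were left out of total RNA, a choice made after seeing the data, 9 member probe sets were called instead of 2, with 1468 called over all probe sets (21.9%) instead of 588. Of these 9, 8 were lower in 6 h polysomal RNA: Canx rc_AA893328_at, rc_AI010725_at and rc_AI235707_g_at, Hsp90b1 AA685903_at and S69315_at, Calr D78308_g_at and X53363cds_s_at, and P4hb M21476_s_at, by log2 differences of -0.65 to -2.35. Canx rc_AA893328_at and P4hb M21476_s_at, at the floor on every array of 6 h polysomal RNA, could not have come out higher in these counts and calls. The ninth, P4hb X02918_g_at, was higher at 0.58 (adjusted p = 0.0391), and the brightest Canx probe set missed the threshold at -0.79 (adjusted p = 0.0567). With numbers 1 and 2 left out instead, 2 member probe sets were called, against 805 of all probe sets (12%). Canx rc_AI010725_g_at had -1.25 (adjusted p = 0.018) and Hspa5 S63521_i_at -1.89 (adjusted p = 0.0206).

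The split between numbers is plain in single probe sets. Calr X53363cds_s_at had 110.2 to 741 in 6 h polysomal RNA, against 1464, 1672, 1396 and 1344 on numbers 1 and 2 of total RNA and 57.3, 57.6, 104 and 32.0 on numbers 3 and 4. Hsp90b1 AA685903_at had 110.2 to 310.2 in 6 h polysomal RNA, against 974, 973, 1105 and 899 on numbers 1 and 2 and 392, 367, 60.8 and 64.7 on numbers 3 and 4. For both, numbers 1 and 2 lay above all polysomal arrays and number 4 below all of them. A pattern of this kind, above the floor on all arrays of 1 h total RNA and of numbers 1 and 2, with a median at the floor elsewhere, was shown by 2 members (Canx rc_AA893328_at and P4hb M21476_s_at) and by 94 of 6707 probe sets, 1.4%. The part of RNA quality in these differences was not tested.

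**Figure D3:**
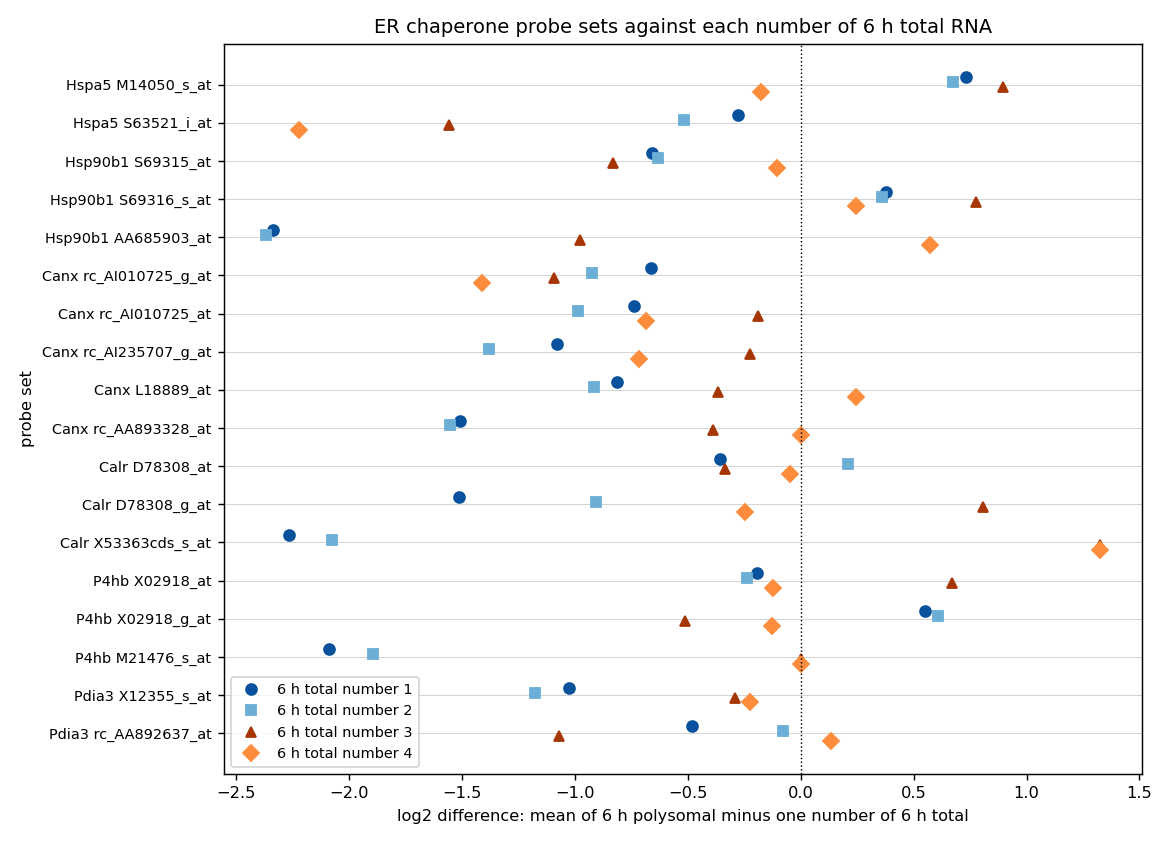
Log2 difference of each tested probe set between the mean of 6 h polysomal RNA and each of the 4 numbers of 6 h total RNA, 1 point per number. Numbers 1 and 2 lie mostly below 0 (medians -0.70 and -0.91) and numbers 3 and 4 nearer to it (-0.31 and -0.11).

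At 1 h, polysomal RNA was compared with the control titled "1hr polysome" and with 1 h total RNA, each with 2 numbers a group. No member was called against the control, and none of the 6707 probe sets was (0%), while 299 had an unadjusted p under 0.05, 0 of them members. Hspa5 had 1652, 1266, 4085 and 3791 in 1 h polysomal RNA, against 1782, 1960.3, 2672 and 1494 in the control titled "1hr polysome". Number 1 lay below and number 2 above most of the control arrays, and the log2 difference was 0.30 (SE 0.54). Hsp90b1 S69316_s_at had 1249.8, 1111, 2226 and 2877 in 1 h polysomal RNA, against 1293, 1146, 1431 and 819.8 in the control, where number 2 lay above all control arrays and number 1 among them, a difference of 0.59 (SE 0.36).

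Against 1 h total RNA no member was called, and 26 of all probe sets were, 0.388%. The members ran from -1.59 to 1.15 with a median of -0.33, against -0.06 over all probe sets, and 4 had an unadjusted p under 0.05, as had 1061 of all 6707. P4hb X02918_g_at had 2231, 2080.3, 2395 and 3249 in 1 h polysomal RNA, against 943, 1120.1, 1295 and 1099 in 1 h total RNA. The 2.21-fold difference did not pass (SE 0.32 on the log2 scale, limma adjusted p = 0.106). P4hb M21476_s_at was at the floor on all 4 polysomal arrays at 1 h, against 257, 322, 539 and 517 in 1 h total RNA, with an adjusted p of 0.176. At the floor there, it could not have come out higher in polysomal RNA. The brightest P4hb probe set, X02918_at, had -0.20 (adjusted p = 0.834), so the probe sets of the gene lay on both sides of 0. Canx rc_AI010725_g_at had 1421, 1208, 2047 and 1896 in 1 h polysomal RNA, against 730.1, 1737, 1874 and 2019.6 in 1 h total RNA, a difference of 0.12. Its change in the difference between fractions, 6 h minus 1 h, was -1.14 (SE 0.41, adjusted p = 0.849), so the fractions were not shown to differ otherwise at 6 h than at 1 h. In that comparison no probe set of any gene was called (0%), and 372 had an unadjusted p under 0.05.

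Within total RNA, 6 h against 1 h, no member was called, and 4 of all probe sets were (0.0596%), with 517 at an unadjusted p under 0.05. The members were split, 9 above and 9 below 0, from -1.36 to 1.16. Canx rc_AI010725_g_at had a median of 2269 at 6 h, against 1806 at 1 h, where 1 array stood at 730.1, a log2 difference of 0.66 (SE 0.29, adjusted p = 0.616). With numbers 1 and 2 of 6 h total RNA left out, 5 members were called, against 766 of all probe sets (11.4%): Calr D78308_g_at (-1.35), Calr X53363cds_s_at (-3.11) and P4hb M21476_s_at (-1.59) lower at 6 h, and Hspa5 S63521_i_at (1.90) and P4hb X02918_g_at (1.18) higher. With numbers 3 and 4 left out, 1 was called, Canx rc_AA893328_at at 1.02, against 25 of all probe sets (0.373%). Within polysomal RNA, 6 h against 1 h, the members ran from -0.65 to 0.48 and none was called, as among all probe sets (0%, with 366 at an unadjusted p under 0.05). Total RNA at 1 h against the control titled "1hr polysome" gave no member call, with 5 of all probe sets called (0.0745%) and 14 of the 18 members above 0. The 2 controls, the one titled "1hr polysome" over the other, differed by -0.54 to 0.75 over the members, with none called among the members or among all probe sets (0%, 367 at an unadjusted p under 0.05 over all). The polysomal difference from the control, 6 h minus 1 h, ran from -0.74 to 0.68 over the members, again with none called among the members or all probe sets (0%, 173 at an unadjusted p under 0.05 over all).

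Across the 6 groups, the order of mean signals differed by gene. Hspa5 was highest in 6 h polysomal RNA, with a geometric mean of 3338, followed by the polysomal control at 2645, 1 h polysomal RNA at 2386, 6 h total RNA at 2309, the control titled "1hr polysome" at 1932 and 1 h total RNA at 1669.6. Neighbours in this order differed by less than the larger of their SDs, except the last 2 groups. Hsp90b1 S69315_at had another order, with 2578 in 6 h total RNA, 2385 in 1 h total RNA, 2121 in the control titled "1hr polysome", 1806 in 1 h polysomal RNA, 1796 in the polysomal control and 1751 in 6 h polysomal RNA. The second Hsp90b1 probe set, S69316_s_at, was highest in 6 h polysomal RNA and lowest in 1 h total RNA, as Hspa5 was. For S69315_at the control titled "1hr polysome" stood apart from its neighbours on both sides by more than their SDs. Canx was highest in 6 h total RNA at 2341, apart from the next group, 1 h polysomal RNA at 1607, and then followed the polysomal control at 1489, 1 h total RNA at 1480.2, the control titled "1hr polysome" at 1407 and 6 h polysomal RNA at 1152, where no neighbours differed beyond their SDs.

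For Calr, P4hb and Pdia3 no neighbouring groups differed by more than their SDs. Calr ran from 5054 in 1 h total RNA to 3731 in the polysomal control, P4hb from 3369 in 1 h total RNA to 2601 in the control titled "1hr polysome", and Pdia3 from 631 in 1 h total RNA to 378 in the control titled "1hr polysome". Among the brightest probe sets the widest spread between numbers was that of Pdia3 in 1 h polysomal RNA, where number 1 had 357 and 302 and number 2 had 1000.1 and 843.

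Probe sets of 1 gene did not move as 1. Over the 18 replicates, Pearson's r of the log2 signals had a median of 0.53 over 21 pairs of the same gene (-0.71 to 0.84) and of 0.26 over 132 pairs of different genes (-0.65 to 0.89). These values are descriptions, and the replicates share groups, fractions and arrays' scaling. Canx rc_AI010725_at and rc_AI235707_g_at were the most alike within a gene at 0.84, while Hsp90b1 S69315_at and S69316_s_at had -0.63 and P4hb X02918_g_at and M21476_s_at -0.71. Between genes, Canx rc_AA893328_at and Hsp90b1 AA685903_at reached 0.89. Among the brightest probe sets, Calr and Pdia3 had 0.61, and Hsp90b1 S69315_at and Hspa5 had -0.55, whereas Hsp90b1 S69316_s_at and the same Hspa5 probe set had 0.845. The genes whose brightest probe sets were most like a member's over the 18 replicates were Mbtps2 for Hsp90b1 (r = 0.937), Hdlbp for P4hb (0.848), Aebp1 for Pdia3 (0.797), Sec31a for Canx (0.771), Casz1 for Hspa5 (0.771) and Foxe3 for Calr (0.687). Mbtps2 stood near the floor, at geometric means of 131 in 6 h polysomal RNA and 136 in the polysomal control.

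**Figure D4:**
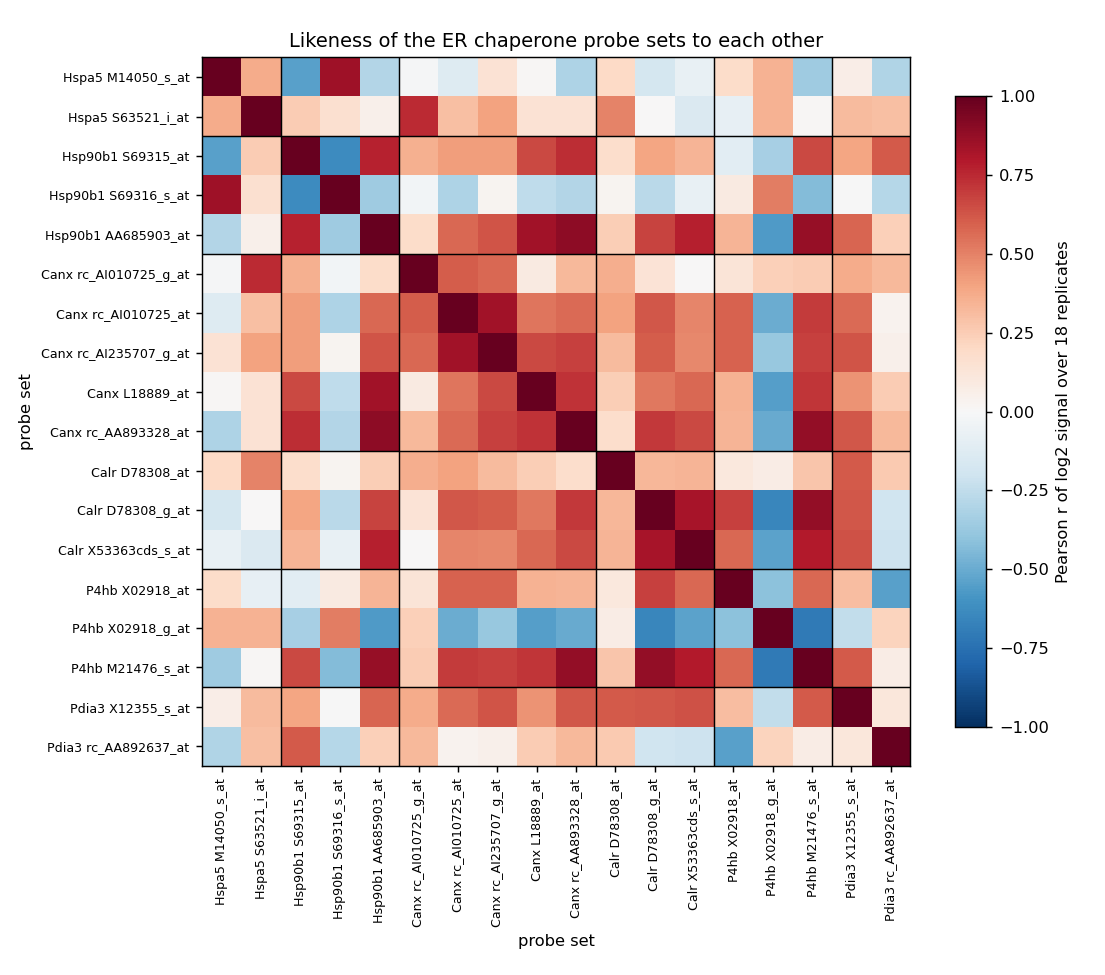
Pearson's r of log2 signal over the 18 replicates among the 18 tested probe sets, ordered by gene. Same-gene blocks are mixed, from -0.71 (P4hb X02918_g_at with M21476_s_at) to 0.84 (Canx rc_AI010725_at with rc_AI235707_g_at).

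Other genes of the secretory route were read from fixed lists, each gene by its brightest tested probe set. Between 6 h polysomal RNA and the polysomal control, 1 gene of all the lists was called: Atf3, a transcription factor of the stress response, had a geometric mean of 22477 in 6 h polysomal RNA, against 862 in the control, a log2 difference of 4.71 (SE 0.64, adjusted p = 0.00385). It was 1 of the 11 tested genes of the unfolded protein response list, in which Ppp1r15a, the eIF2alpha phosphatase subunit, had 1.91 (adjusted p = 0.106) and Ddit3 (CHOP) 0.30. None of the 16 tested folding helpers or of the 4 genes listed for endoplasmic reticulum-associated degradation was called. Nor was any of 17 genes of the translocon and glycosylation, 13 of sarcoplasmic reticulum calcium handling or 24 of secreted matrix. Among the folding helpers Dnajb9, a cochaperone of Hspa5, had -0.63 (adjusted p = 1), and among the matrix genes Timp1, an inhibitor of matrix proteases, had 1.20 (adjusted p = 0.273).

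Between the fractions at 6 h, where 8.77% of probe sets were called, the folding helpers had 2 of 16 genes higher in polysomal RNA, Cnpy2 at 0.87 (adjusted p = 0.0331) and Ppib, the cyclophilin that acts on collagen, at 0.84 (adjusted p = 0.0382), and none lower, with a list median of -0.11. Ddit3 was higher, with a geometric mean of 1059 in 6 h polysomal RNA, against 392 in 6 h total RNA (1.43, SE 0.42, adjusted p = 0.0457). On the degradation list, the ubiquitin-conjugating enzyme Ube2g2 was higher at 1.44 (limma adjusted p = 0.0298). Hspa4, a heat shock protein gene on that list that is not specific to degradation, was lower at -1.50 (limma adjusted p = 0.044). Of the matrix genes 1 of 24 was higher, Lox at 1.73, and 4 were lower, among them Lamc1 at -1.23 and Sparc at -0.94. Jph2, which ties the sarcoplasmic reticulum to the surface membrane, was higher at 0.51 (adjusted p = 0.0475), and no translocon gene was called. Without numbers 3 and 4 of 6 h total RNA, where 21.9% of probe sets were called, the calls of Ddit3 (1.74), Ube2g2 (2.17), Jph2 (0.61) and Lox (2.36), all higher, and of Lamc1, lower, remained, while Cnpy2 had 0.63 (adjusted p = 0.118), Ppib 0.79 (0.0813), Hspa4 -1.57 (0.0591) and Sparc -0.91 (0.0557). The lists then had 1 higher and 3 lower folding helpers, 1 and 2 genes of the unfolded protein response, 1 and 1 of degradation, 1 and 4 of the translocon, 1 and 2 of calcium handling and 2 and 8 of matrix. Without numbers 1 and 2 instead, 12% of probe sets were called. Of the list genes called with all numbers, only Cnpy2 remained (1.11, limma adjusted p = 0.0253). In that setting the lists had 2 higher folding helpers, 1 higher degradation gene, 3 higher translocon genes and 1 lower matrix gene. At 1 h no gene of any list was called in either comparison.

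**Figure D5:**
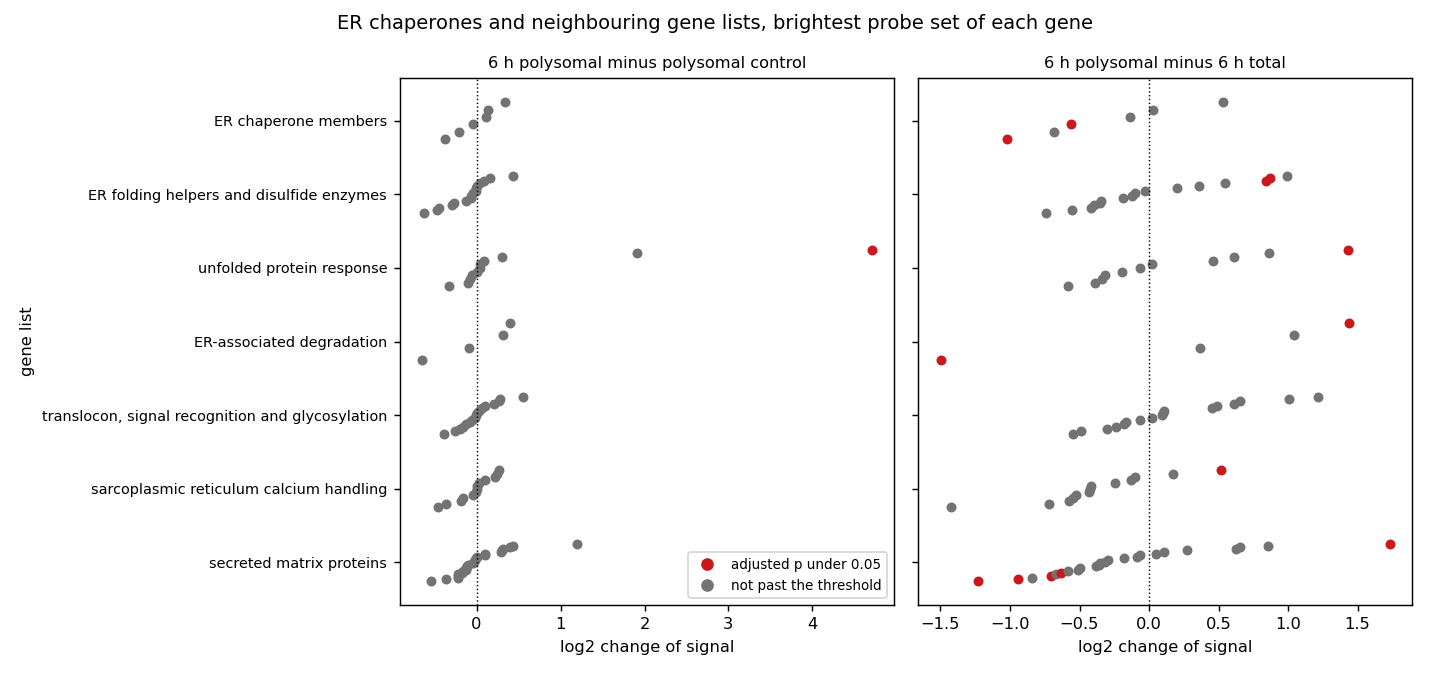
Log2 difference of the members' brightest probe sets and of the genes of 6 lists in 6 h polysomal RNA minus the polysomal control and minus 6 h total RNA, 1 point per gene; red marks an adjusted p under 0.05. Atf3 stands at 4.71 in the comparison with the control, far from the members, which lie between -0.37 and 0.34.

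Markers of other cells were summed beside these results. In bulk RNA, fewer cells of a type and less RNA per cell cannot be told apart. The summed macrophage markers, 5 of 8 tested, ran from 5315 to 16908 in 6 h polysomal RNA, against 3399 to 7287 in 6 h total RNA and 4297 to 7477 in the polysomal control, with Csf1r at the floor and 0 markers called. Fibroblast markers ran from 26498 to 64158 in 6 h polysomal RNA, against 39197 to 62824 in 6 h total RNA and 30121 to 79926 in the polysomal control. Over all marker lists, 1 adipocyte marker was called higher in 6 h polysomal RNA than in 6 h total RNA. Between these fractions 8.77% of all probe sets were called. No other marker was called in either comparison. On numbers 1 and 2 of 6 h total RNA the macrophage sums were 3399 to 4549.6, below those of all arrays of 6 h polysomal RNA, and the fibroblast sums 55374 to 62824. Without numbers 3 and 4, 1 macrophage marker was called higher, and 2 fibroblast, 1 endothelial and 1 nerve marker lower, in 6 h polysomal RNA. In that setting 21.9% of all probe sets were called. The sums of fast-muscle genes overlapped likewise, from 39159 to 227253 in 6 h polysomal RNA, against 91471 to 337698 in 6 h total RNA and 51761 to 356281 in the polysomal control. Their part in the chaperone values was not tested.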

How the data were processed

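The authors deposited 1 table of linear intensity signals, 1 value per probe set and array, already scaled to a common trimmed mean. How the scanner values were corrected and summarised is not given in the sources used here. After that, the 59 control probe sets were left out, signals under the 40th percentile (129.5) were set to it, and log2 was taken. The 2 arrays of a number were averaged, giving 18 replicates, because the labels do not say what the arrays of a number share. The 6707 probe sets with 4 or more arrays above the floor entered 1 limma 3.58.1 fit over the 6 groups in R 4.3.3 with 12 residual degrees of freedom, two-sided, with Benjamini-Hochberg adjustment over all 6707. The number of arrays limits the precision. Within a number arrays correlated at 0.897 to 0.981, and other pairs at 0.775 to 0.975, so none was a copy. Symbols came from the platform annotation, updated by Entrez identifier: 7006 probe sets had 1 symbol, 308 several and 1426 none. A gene is named by its brightest tested probe set, and of each list the called genes with the largest change were named, 4 at most, or else those with the smallest p. Same-numbered samples of 6 h polysomal RNA and the polysomal control deviated together (r 0.431 to 0.538). Different numbers correlated at 0.053 to 0.374 among 1 and 2 or among 3 and 4. Numbers 1 and 2 correlated with 3 and 4 at -0.514 to -0.178. A pairing of numbers, which the labels do not state, was therefore not separated from a split of numbers 1 and 2 from 3 and 4. The blocked fit is given with the alternatives. The members and gene lists were chosen with earlier results of these data known. The fit was tested on simulated data.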

Additional observations from a re-analysis of the deposited data

Results flagged for a closer look

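Of the 50 sets of 4 numbers examined over the brightest and other tested probe sets, 2 held a number far from the rest, and chance gives about 1 in 20 groups. P4hb X02918_at in 6 h polysomal RNA was highest on number 2, at a geometric mean of 3398 against 2786 to 2865 on the other 3 numbers (gap over range 0.859). The same probe set in 6 h total RNA was lowest on number 3, at 1857 against 3212 to 3487 on the other 3 (gap over range 0.870), and number 3 is the one with the high 3′/5′ ratios. The part of RNA quality in this value was not tested.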

How the results depend on the processing

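In the comparison of 6 h polysomal RNA with 6 h total RNA, 2 member probe sets were called. The count was 1 with the floor at the 20th percentile and 1 under 75th percentile scaling (all probe sets 331 higher and 157 lower). It was 7 with every array entered (duplicateCorrelation, consensus 0.314). For the 20th percentile floor and for every array, the counts over all probe sets are not given here. Those member counts therefore cannot be set against a share. With numbers 1 and 2 of the 6 h set only the member count was 6 (all probe sets 386 higher and 700 lower). With numbers 3 and 4 only it was 0 (all probe sets 38 higher and 35 lower). Without numbers 3 and 4 of total RNA, a setting chosen after seeing the data, it was 9 (all probe sets 1468). Leaving out 1 number gave 0 to 5 calls (all probe sets 247 to 1099): 0 without number 3 of polysomal RNA, 5 without number 3 or number 4 of total RNA. Canx rc_AI010725_g_at kept its direction in all 19 alternatives (-1.25 to -0.79) and passed in 15, with adjusted p of 0.00158 to 0.151. Hsp90b1 S69315_at kept its direction in all 19 (-0.71 to -0.40) and passed in 7, with adjusted p of 0.00238 to 0.344. With every array entered, 3 members were called between the fractions at 1 h and 1 between 1 h total RNA and its control. Over all probe sets, the alternatives gave up to 364 calls between these fractions and up to 564 between 1 h total RNA and its control. Between times, the difference of fractions gave 1 call without numbers 3 and 4 of 6 h total RNA and 2 without numbers 1 and 2 (all probe sets 2 and 357), and 6 h against 1 h total RNA gave 1 and 5 (all probe sets 25 and 766), all under alternatives chosen after seeing the data. The cause of these moves was not tested. With the replicate block, 0 members were called between 6 h polysomal RNA and the polysomal control (all probe sets 32 higher and 1 lower). Between the fractions at 6 h 2 members were called (all probe sets 305 higher and 388 lower). These were Canx rc_AI010725_g_at (limma adjusted p = 0.0132) and Canx rc_AI235707_g_at (0.0133). Hsp90b1 S69315_at had 0.058 there, and the block changed no other member's call. Same-numbered samples of the fractions at 6 h correlated at 0.0726 to 0.248. Of 2744 member values under alternatives, 225 had the opposite sign, all in results that were not called with either setting. Over all probe sets, 588 calls between the fractions at 6 h became 73 to 1468, 23 calls against the polysomal control 0 to 106, and 26 calls at 1 h 1 to 364. Member calls against both controls at 1 h and 6 h were 0 in every alternative run for polysomal RNA.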
